A study of Homo sapiens with 16 samples.

Results

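The genes described here are the rows of the deposited mRNA table that lie on chromosome 19 and carry a symbol made of ZNF and digits. These were 105 of the 9944 gene-body regions in the table and 105 of its 467 chromosome 19 regions. The assay, TT-chem-seq, reads nascent RNA: newly made RNA is labelled in living cells with 4-thiouridine (4-SU), then fragmented, biotinylated, pulled down and sequenced. All cells were wild-type HAP1, which is near-haploid and descends from the human leukaemia line KBM-7. Cells were treated for 1 h or 5 h with 1 µM BMH-21, an inhibitor of RNA polymerase I, with 100 µM DRB, an inhibitor of RNA polymerase II elongation, or with 20 µM ML-60218, an inhibitor of RNA polymerase III. Untreated cells with 4-SU were the control of all 6 inhibitor groups, and cells without 4-SU gave the background of the pull-down. In the 7 groups with label, 1 mM 4-SU was present for the last 30 min. Each of the 8 groups had 2 libraries. The labels number them as biological replicates but name no separate cultures, and the p-values cover only the spread between these libraries, which may be technical. That spread was pooled over all libraries fitted together, not only those compared, although it differed widely between groups.

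Genes of this family encode proteins with arrays of C2H2 zinc fingers that bind DNA, in most cases behind a KRAB domain. The KRAB domain recruits TRIM28 and, through it, the histone methyltransferase SETDB1, and this complex silences transposable elements, each protein acting on the sequences its fingers recognise. In human cells many of these genes stand in clusters on chromosome 19 that arose by tandem duplication, so neighbours can be near-identical copies. The division of tags between such copies is uncertain here, since how reads with several matches were handled is not given in the sources used here.

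The 105 regions spanned 3.54 to 59.2 kb, with a median of 20.4 kb against 17.1 kb over all rows. Spans were under 10 kb for 15 members, 10 to 30 kb for 68 and 30 to 100 kb for 22. The plus strand held 57 members and the minus strand 48. Splitting at gaps of over 1 Mb put them into 13 groups by position, 9 of which held more than 1 member. Tags were counted without a strand option, but no member overlapped another row of the table.

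Promoters are shown for the start sites of some members whose values are described below, and for the pair of members with the most alike promoters. RefSeq promoter sequences (GRCh38.p14, 250 bases before to 50 after the annotated start) were matched by symbol and strand for 90 members, and for 86 of these the start lay within 1000 bases of the region's start in the table. The heptamer CCGGAAG, which contains the core recognised by ETS family factors, or its complement CTTCCGG stood in 40 of these 86 promoters (46.5%). It stood in 29 of 74 promoters of ZNF genes on other chromosomes (39.2%), in 18 of 216 promoters of other chromosome 19 rows (8.33%) and in 546 of 4669 matched promoters of the table (11.7%). Over all 35116 RefSeq promoters the share was 10.3%. The sequences below run 5′ to 3′ on the gene's strand, with the heptamer on either strand in capitals.

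ZNF416 (chr19:57578862-57579161, minus strand), ZNF773 (chr19:57499688-57499987, plus) and ZNF296 (chr19:45076429-45076728, minus) were among the members with the largest falls in DRB at 1 h. ZNF845 (chr19:53333499-53333798, plus) and ZNF765 (chr19:53394899-53395198, plus) lie in the same positional group, with ZNF525 between them, and had 0 to 2 tags per DRB library at 5 h. ZNF274 (chr19:58182811-58183110, plus) kept the highest share of its untreated level at 1 h among the 85 members with at least 50 untreated tags. ZNF486 (chr19:20166964-20167263, plus) and ZNF626 (chr19:20661522-20661821, minus) had the most alike pair of promoters among the members.
ZNF416: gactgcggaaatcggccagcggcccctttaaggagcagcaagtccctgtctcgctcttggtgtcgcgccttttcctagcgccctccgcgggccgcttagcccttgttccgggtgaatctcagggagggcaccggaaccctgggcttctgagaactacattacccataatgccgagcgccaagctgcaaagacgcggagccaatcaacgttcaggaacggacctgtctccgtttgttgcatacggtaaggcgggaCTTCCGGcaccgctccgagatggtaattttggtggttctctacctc
ZNF773: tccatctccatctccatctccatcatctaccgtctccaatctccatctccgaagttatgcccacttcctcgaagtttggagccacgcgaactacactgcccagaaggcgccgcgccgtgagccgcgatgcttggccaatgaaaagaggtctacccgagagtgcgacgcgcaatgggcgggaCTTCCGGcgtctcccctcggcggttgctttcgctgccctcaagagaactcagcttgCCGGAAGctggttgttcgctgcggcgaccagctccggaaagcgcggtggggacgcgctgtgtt
ZNF296: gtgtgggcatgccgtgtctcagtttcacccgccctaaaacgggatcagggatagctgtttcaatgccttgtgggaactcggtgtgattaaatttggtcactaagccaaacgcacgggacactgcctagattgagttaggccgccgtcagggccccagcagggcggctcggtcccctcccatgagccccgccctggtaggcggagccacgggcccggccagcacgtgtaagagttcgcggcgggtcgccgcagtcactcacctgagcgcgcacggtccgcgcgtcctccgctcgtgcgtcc
ZNF845: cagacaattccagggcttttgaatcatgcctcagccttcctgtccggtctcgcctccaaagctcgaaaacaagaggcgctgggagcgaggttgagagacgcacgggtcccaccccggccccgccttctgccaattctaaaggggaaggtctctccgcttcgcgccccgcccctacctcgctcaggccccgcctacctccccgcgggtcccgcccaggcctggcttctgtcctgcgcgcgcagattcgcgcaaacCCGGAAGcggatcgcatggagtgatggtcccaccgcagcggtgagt
ZNF765: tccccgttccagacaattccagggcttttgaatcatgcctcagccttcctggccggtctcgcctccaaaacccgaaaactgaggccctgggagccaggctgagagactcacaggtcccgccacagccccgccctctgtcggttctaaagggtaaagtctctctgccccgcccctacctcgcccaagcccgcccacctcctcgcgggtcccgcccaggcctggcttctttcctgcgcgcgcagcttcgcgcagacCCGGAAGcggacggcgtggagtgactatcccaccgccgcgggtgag
ZNF274: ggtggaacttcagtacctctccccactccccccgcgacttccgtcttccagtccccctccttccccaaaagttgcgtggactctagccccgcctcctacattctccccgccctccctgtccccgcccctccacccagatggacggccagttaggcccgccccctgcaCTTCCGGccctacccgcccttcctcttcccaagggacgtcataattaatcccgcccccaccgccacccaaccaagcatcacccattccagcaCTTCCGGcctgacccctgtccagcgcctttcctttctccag
ZNF486: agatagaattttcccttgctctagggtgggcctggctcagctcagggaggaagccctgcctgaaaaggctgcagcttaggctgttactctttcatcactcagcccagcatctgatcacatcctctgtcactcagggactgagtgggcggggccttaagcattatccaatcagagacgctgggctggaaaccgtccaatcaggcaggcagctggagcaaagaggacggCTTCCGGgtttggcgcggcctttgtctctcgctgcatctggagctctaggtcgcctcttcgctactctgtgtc
ZNF626: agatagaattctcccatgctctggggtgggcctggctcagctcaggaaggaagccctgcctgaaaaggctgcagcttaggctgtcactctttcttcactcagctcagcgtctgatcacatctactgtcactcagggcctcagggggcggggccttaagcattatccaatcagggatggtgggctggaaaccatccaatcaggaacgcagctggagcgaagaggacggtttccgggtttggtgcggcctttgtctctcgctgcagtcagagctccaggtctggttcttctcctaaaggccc

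In ZNF416, ZNF845 and ZNF765 the heptamer began at the same place, 4 bases past the start site, counting the start-site base as 0. Of the 44 sites in the 40 member promoters, 9 began there and 5 began at -18. Over all RefSeq promoters 44 of 4335 sites began 4 bases past the start. Of the 9 member promoters, all but those of ZNF416 and ZNF530 belong to the positional group from ZNF175 to ZNF331. Among the 5, those of ZNF254, ZNF257 and ZNF730 share the group from ZNF101 to ZNF254. Related copies may thus be counted repeatedly. Within 40 bases of the start lay 36 of the 44 sites (81.8%), against 43.3% of 4335 sites in all RefSeq promoters. ZNF256, ZNF274, ZNF557 and ZNF773 held 2 sites each and the other 36 promoters held 1. ZNF296, the member with the highest nascent level, held none.

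Other short motifs were searched on both strands in the same windows. CCAAT, the core bound by NF-Y, stood in 58.1% of member promoters and 37.6% of the table's promoters, and GGGCGG, a core of Sp factors, in 69.8% and 53.5%. TATAAA was rarer, at 4.65% against 11.2%, and so was the E-box CACGTG, at 1.16% against 8.46%. The cAMP response element TGACGTCA stood in 4.65% against 2.51%, the palindrome of NRF1 in 1.16% against 1.20%, and the YY1-type sequence ATGGCGGC in 4.65% against 3.62%. A match is only these letters in this window.

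Aligned without gaps and with shifts of up to 10 bases, the 3655 pairs of member promoters had a median identity of 30.3%. Only 22 pairs passed 60%, and in each of these both genes came from the same positional group. ZNF486 and ZNF626 reached 85.3%, yet ZNF486 held the heptamer at -23 and ZNF626 held none. ZNF468 and ZNF845 shared 66.7% of bases, and ZNF765 and ZNF845 shared 50.7%.

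The libraries differed widely in depth, with 14083584 to 93919776.5 tags in all and 55845.5 to 6059928.5 tags in the mRNA table. Values are in tags, HOMER's unit of mapped reads, and came in steps of 0.5 tag. Members together held 342 and 314.5 tags in the DRB 5 h libraries, 1025 and 1322 in the DRB 1 h libraries and 14588.5 and 22361 in the untreated libraries, so DRB at 5 h was the least precise group. The SD of a member's log2 value between libraries was 2.0 for DRB 5 h, 1.02 for DRB 1 h and 0.28 for untreated cells. Of 12 blood cell markers 4 were in the table, with 66.5 and 86 tags in sum in the 2 untreated libraries. KIT had 56 and 69, GATA1 8 and 12.5, SPI1 2.5 and 4.5, and CD33 had 0. Of 6 fibroblast markers 4 were in the table, with 44 and 84.5 tags in sum, of which COL1A1 had 28 and 62.5. Of 4 epithelial markers 0 were in the table. The part of these markers in any result was not tested.

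In untreated cells the members ranged from 0 to 2624 tags over both libraries, with a median of 239. At least 50 tags were found for 85 members, under 10 for 10 members, and none for ZNF439 and ZNF534. The level of a gene is given here as tags per kb of span per 1000000 mRNA tags, and its median over the 105 members was 4.28. ZNF296 had 187 and 193, a mean of 189.8 ± 3.95 (SD, n = 2), and alone made up 7.10% of all member tags. This gene encodes a C2H2 protein without a KRAB domain whose mouse counterpart is active in pluripotent cells.

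A wide gap separated ZNF296 from the next members. ZNF414 had levels of 30.9 and 28.4, ZNF121 29 and 25.5, and ZNF416 25.8 and 27.5. ZNF146, whose protein consists almost wholly of zinc fingers, had 27.2 and 24.4, and ZNF579 had 23.5 and 27.9. Each of these overlapped its neighbour in the order between libraries, although both ZNF414 values lay above those of ZNF416, ZNF146 and ZNF579.

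Spike-in levels, which compare RNA amounts across groups, rest on the yeast RNA added to each lysate. The authors' deposited ratios set each library against its like-numbered untreated library, and all percentages of untreated below are on this scale. Fewer cells and less RNA per cell cannot be told apart in these bulk libraries. Relative log2 changes, by contrast, compare a gene with the other genes of the mRNA table.

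Without 4-SU the pull-down recovered little member RNA. The summed members stood at 0.434% and 1.17% of untreated in the libraries without 4-SU, and all rows at 1.05% and 2.72%. For the 85 members with at least 50 untreated tags the value without 4-SU lay between 0.109% and 3.23%. Members made up 1.42% and 1.33% of mRNA tags in untreated cells with 4-SU, against 0.585% and 0.575% in cells without it.

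Relative to the whole table, members were richer in labelled RNA. Of the 93 members tested, 39 were higher in untreated cells with 4-SU than in cells without 4-SU by limma (adjusted p under 0.05) and 0 were lower. This is 41.9% of the members, against 17.3% of all 5769 rows tested called higher and 17.1% called lower. The median log2 change was 1.29 for members and 0.04 for all rows. ZNF genes on other chromosomes had the same trait, with 40 of 84 called higher by limma (47.6%) and a median of 1.11. Leaving out untreated replicate 1 brought the 39 to 20, and leaving out untreated replicate 2 brought them to 24. By edgeR 58 were higher and 1 lower, against 23.5% and 28.1% of all rows. The 1 lower was ZNF676, which had 60.5 tags with 4-SU over both libraries against 18.5 without, a relative log2 change of -1.22 (edgeR adjusted p = 0.0456).

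ZNF296 had 978.5 and 1645.5 tags in untreated cells with 4-SU, against 20 and 6 tags without 4-SU. Its relative log2 change was 3.88 ± 0.35 (SE, limma adjusted p = 5.43e-05). ZNF773 had 142.5 and 219.5 tags against 1 and 2.5, a change of 3.77 ± 0.51 (limma adjusted p = 0.000405). For both genes each library with 4-SU was far above each library without it. The other genes selected here were ZNF14, ZNF256, ZNF416, ZNF557, ZNF627 and ZNF837, with changes of 2.58 for ZNF256 to 4.00 for ZNF416 and limma adjusted p of 0.000223 for ZNF627 to 0.0377 for ZNF416. In all 6 both libraries with 4-SU had at least 100 tags and both without it had 12.5 or fewer.

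In DRB the nascent RNA of the family was lower than in untreated cells, and by more than that of the table as a whole. No member spanned over 100 kb, whereas the sum of all rows includes regions of that length. Sums at DRB 1 h within classes of span are set side by side below. After 1 h the summed members stood at 12.9% and 12.3% of untreated, a mean of 12.6% ± 0.417 (SD, n = 2), against 33.3% ± 3.89 for all rows. After 5 h they stood at 6.47% and 7.19%, a mean of 6.83% ± 0.51, against 17.3% ± 0.426 for all rows. Both DRB 5 h libraries lay below both DRB 1 h libraries, and each member sum lay below the sum of all rows in the same library. With 2 libraries against 2, an exact permutation test of a single sum cannot give a two-sided p below 0.333.

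ZNF genes on other chromosomes, a list of 99 rows, stood between the members and the whole table in their sum, which was at 20.0% and 22% of untreated at DRB 1 h and at 7.82% and 8.47% at DRB 5 h. The 350 other rows of chromosome 19 stood at 33.1% and 37.3% at 1 h and at 24% and 21% at 5 h. The signal of the libraries without 4-SU equalled 3.37% and 9.55% of the member level at DRB 1 h and 6.71% and 16.3% at DRB 5 h, so a larger part of the 5 h values lies at the level of the unlabelled background.

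**Figure D1:**
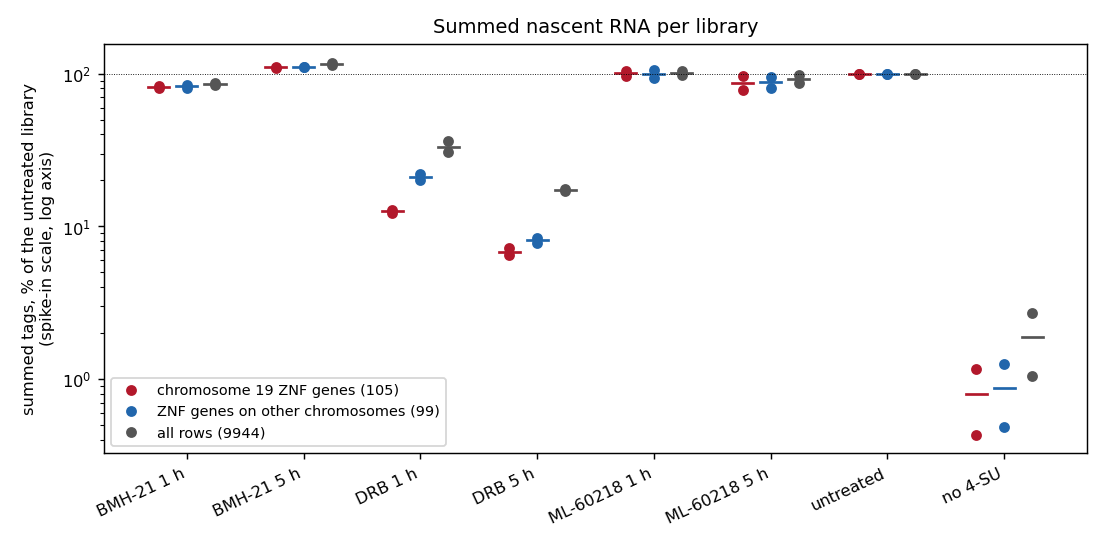
Summed tags as a percent of untreated on the spike-in scale (log axis) for the 105 members, the ZNF genes on other chromosomes and all rows of the mRNA table, by group. Points are libraries and bars are means of 2 libraries. Members stand lowest of the 3 lists in DRB, at 12.6% after 1 h and 6.83% after 5 h, and between 78.3% and 110.3% in the other inhibitors.

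Gene by gene, values are given for the 85 members with at least 50 untreated tags, a choice that uses the untreated group. None of these 85 was above its untreated level in DRB. Among members with fewer untreated tags, ZNF541, ZNF264 and ZNF418 averaged above it at 1 h and ZNF404, ZNF264 and ZNF418 at 5 h, each on 13.5 DRB tags or fewer per time. At 1 h the values of the 85 ran from 0% to 70.8% of untreated with a median of 10.9% (25% over all rows with 50 untreated tags), and 38 were under 10%. At 5 h they ran from 0% to 74.1% with a median of 5.40% (10.8% over all such rows), and 62 were under 10%. The value was lower at 5 h than at 1 h for 60 of the 85 and higher for 25.

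In the relative test at 1 h, limma called 54 of 96 members lower and 2 higher in DRB than in untreated cells. The share called lower was 56.25% of members against 27.5% of the 5532 rows tested, and 13.4% of all rows were called higher. The median relative log2 change was -1.61 for members and -0.20 for all rows. ZNF genes on other chromosomes had 48 of 82 lower (58.5%) and a median of -1.18. By edgeR 69 were lower and 5 higher, against 32.2% and 21.1% of all rows. On the spike-in scale 86 of 96 members were lower by limma and 0 higher, where 66.4% of all rows were lower and 0.976% higher. The other 9 members did not pass the filter on low tags, which were ZNF99, ZNF223, ZNF404, ZNF439, ZNF525, ZNF534, ZNF728, ZNF763 and ZNF812.

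ZNF296 had 8 and 10.5 tags in DRB at 1 h, against 978.5 and 1645.5 in untreated cells, which put it at 1.41% ± 0.122 of untreated on the spike-in scale. Its relative log2 change was -4.54 ± 0.26 (SE, limma adjusted p = 2.65e-06). ZNF773 had 1 tag in each DRB library, against 142.5 and 219.5 in untreated cells, and its pooled share of mRNA tags was 30.6-fold lower (95% exact counting interval 8.41 to 254). Both libraries of DRB lay far under both untreated libraries for these genes.

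ZNF416 had 1 and 1.5 tags in DRB at 1 h against 195.5 and 340 in untreated cells, and was 36.2-fold lower in pooled share (11.3 to 218). ZNF792 had 0 and 2.5 tags against 105.5 and 148.5 and was 17.2-fold lower (5.31 to 104). Intervals and bounds of this kind cover counting error only. The limma adjusted p values of these 4 genes lay between 2.65e-06 for ZNF296 and 0.0193 for ZNF416. ZNF14 had 4 and 4 tags in DRB against 343 and 465 in untreated cells, with a relative log2 change of -4.05 ± 0.35 (limma adjusted p = 2.43e-05). ZNF530, ZNF552 and ZNF776 completed the selection, with 0.5 to 8 tags per DRB library against 103.5 to 434.5 per untreated library. ZNF235, chosen after its values were seen, had no tag in either DRB 1 h library against 74 and 66 in untreated cells, which is at least 7.89-fold lower by a floor of 3 tags over the group.

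At the other end, ZNF274 kept 70.8% ± 8.69 of its untreated level after 1 h of DRB, with 79 and 95 tags against 188.5 and 306 in untreated cells. ZNF274 is a KRAB protein that binds the 3′ ends of zinc-finger genes and recruits SETDB1 there. ZNF43 stood at 61.5% ± 30.0 with 16 and 15 tags, so its place in the order is loose. ZNF331, an imprinted gene, stood at 48.2% ± 0.101 with 31.5 and 45.5 tags against 120 and 196. ZNF761 followed at 47.2% ± 14.6 and ZNF573 at 43.4% ± 4.86. These 5 genes are given for their rank among the 85 members, as a description.

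The 2 members called higher at 1 h by limma had few tags. ZNF264 had 3 and 10.5 tags in DRB against 5 and 11.5 in untreated cells, a relative log2 change of 2.06 ± 0.58 (limma adjusted p = 0.018). ZNF541 had 5 and 5 tags against 3 and 8, a change of 2.48 ± 0.64 (limma adjusted p = 0.0113). For both genes the raw tag counts of DRB and untreated libraries overlapped, but these libraries differed in depth. Their levels, which allow for depth, did not overlap. ZNF264 had levels of 0.559 and 1.15 in DRB at 1 h against 0.155 and 0.219 in untreated cells. ZNF541 had 0.83 and 0.489 against 0.083 and 0.135. On the spike-in scale neither passed by limma, with changes of 0.51 for ZNF264 (limma adjusted p = 0.47) and 0.93 for ZNF541.

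The share kept at DRB 1 h went with the length of the gene. Members under 10 kb stood at 3.06% and 3.50% of untreated in sum, a mean of 3.28% ± 0.308. Members of 10 to 30 kb stood at 10.9% and 10.4%, and members of 30 to 100 kb at 25.5% and 24.3%. The 3 classes did not overlap between libraries. Without ZNF296 the shortest class stood at 4.30% and 5.25%.

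The same classes over all rows differed less, with sums of 15.0% and 21% under 10 kb, 20.8% and 26.4% at 10 to 30 kb, and 35% and 39.1% at 30 to 100 kb. In each class the members stood below all rows in both libraries. In the relative test at 1 h, limma called 11 of 13 members under 10 kb lower, 84.6% against 45.1% of all rows of that class. At 10 to 30 kb it called 36 of 61 (59% against 38.6%), and at 30 to 100 kb 7 of 22 (31.8% against 15.8%). Median log2 changes from the shortest class to the longest were -4.04, -1.76 and -0.44 for members, against -1.38, -0.80 and 0.07 for all rows. Across the 85 members the Spearman rank correlation of span with percent of untreated was 0.66 at 1 h. This describes genes that share their libraries, and span also went with the untreated level, at a rank correlation of -0.46. That level is divided by span, so part of this second correlation may be built in.

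After 5 h the 3 classes lay closer together. Members under 10 kb stood at 5.42% and 4.72% of untreated, members of 10 to 30 kb at 6.27% and 6.56%, and members of 30 to 100 kb at 7.78% and 10.8%, so their order was as at 1 h. This order rested on ZNF296, since without it the shortest class stood at 8.48% and 6.76%, above both values of the middle class. The rank correlation of span with percent of untreated over the 85 members was 0.13. Of the shortest 12 members 9 were higher at 5 h than at 1 h, while of the longest 18 only 1 was higher and 17 were lower. At 10 to 30 kb 15 of 55 were higher and 40 lower.

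**Figure D2:**
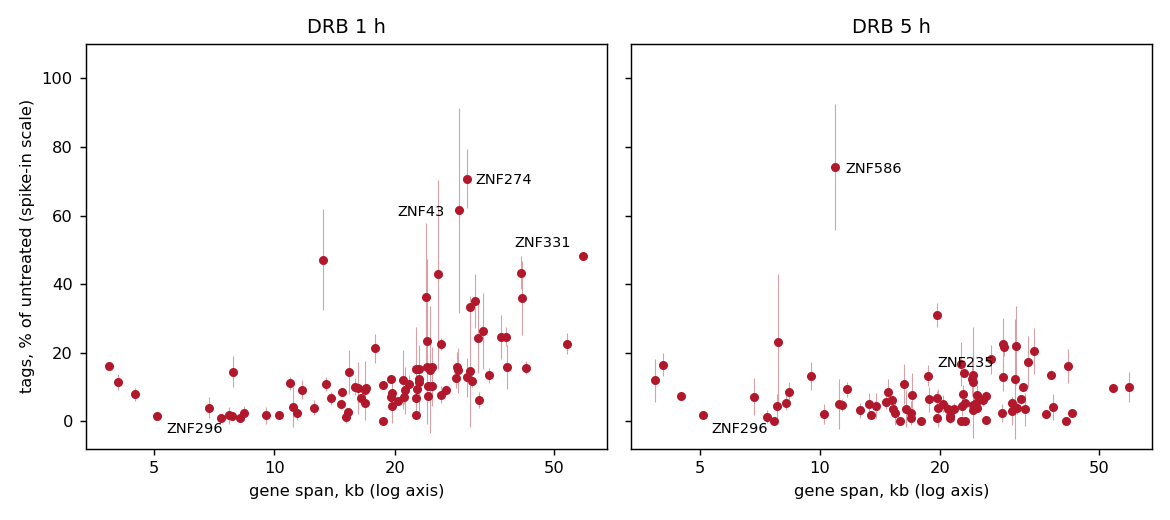
Percent of untreated on the spike-in scale against gene span (log axis) for the 85 members with at least 50 untreated tags, at DRB 1 h and DRB 5 h. Points are means of 2 libraries and bars are SD. At 1 h the longer members keep more, with a rank correlation of 0.66, and at 5 h the points lie low across the whole range of spans, with a rank correlation of 0.13.

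For DRB 5 h a member is counted as changed only where both limma and edgeR called it, because limma alone was unreliable on simulated data with libraries of this depth. By that rule 48 of 96 members were lower and 4 higher in DRB at 5 h than in untreated cells. The share lower was 50.0% of members against 26.3% of all rows, and 20.2% of all rows were higher. The median relative log2 change by edgeR was -1.58 for members and -0.30 for all rows. ZNF genes on other chromosomes had 52 of 82 lower by both tools (63.4%), with a median of -1.43. By limma alone 61 members were lower and 4 higher, where 38% of all rows were lower and 23.3% higher. DESeq2 called 35 in all (45.3% of all rows), and limma 21 of 86 with only the 4 libraries compared in the fit (34.2% of all rows). On the spike-in scale 90 of 96 were lower by limma and 0 higher, against 75.1% and 5.64% of all rows. That scale was tested with limma alone, so these calls do not meet the rule of both tools.

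Nearly all signal of several members was gone at 5 h. ZNF180 had 1 and 0 tags in DRB at 5 h, against 366 and 533.5 in untreated cells, and was 41.7-fold lower in pooled share (7.47 to 1650, edgeR adjusted p = 4.13e-07). ZNF765 had 0 and 1 tag against 212 and 271.5 and was 22.4-fold lower (4.01 to 888). ZNF845, of the same positional group, had 2 and 0 tags against 252 and 364.5 and was 14.3-fold lower (3.94 to 118). ZNF468, also of that group, was 16.5-fold lower (3.84 to 230), with 1 and 0.5 tags against 221 and 312.5. No DRB library of these 4 genes came near an untreated one.

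ZNF554 had no tag in either DRB 5 h library, against 123.5 and 201 in untreated cells, which is at least 5.02-fold lower. ZNF792 had none either and was at least 3.93-fold lower. ZNF175 and ZNF416 had 1 and 2 tags over both DRB libraries and were 14.1-fold (2.50 to 557) and 12.4-fold lower (3.42 to 103). In all, 15 members had no tag in either DRB 5 h library, 6 of them among the 85 with at least 50 untreated tags. At this depth a count of 0 does not show that a gene was silent.

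The 4 members called higher at 5 h by both tools were ZNF264, ZNF418, ZNF586 and ZNF880. ZNF586 had 6 and 4 tags in DRB at 5 h against 19 and 33.5 in untreated cells, a relative log2 change of 2.04 by edgeR (adjusted p = 0.00431), and stood at 74.1% ± 18.5 of untreated. ZNF264 had 4 and 7 tags against 5 and 11.5, and ZNF418 had 4 and 4 against 4 and 10. ZNF880 had 1 tag in each DRB library against 0 and 2. None of the 4 passed on the spike-in scale, with limma adjusted p of 0.0544 for ZNF264, 0.0799 for ZNF880, 0.145 for ZNF418 and 0.296 for ZNF586.

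The 2 times of DRB were also compared with each other. Both tools called 14 of 96 members higher at 5 h than at 1 h and 9 lower, or 14.6% and 9.38% of members, against 19.9% and 16.4% of all rows. These shares lay below the background in both directions. The median relative log2 change by edgeR was 0.17 for members and 0.27 for all rows, whereas by limma it was -0.24 against 0.08, so the direction of the median depended on the tool, and by limma it was 0.022 without DRB 5 h replicate 1. With only the 4 DRB libraries in the fit, limma called 7 of 19 members (50% of all rows). By limma alone 26 members were higher and 20 lower, against 29.6% and 25.3% of all rows. With spike-in scaling, tested by limma alone, 38 members were lower at 5 h and 12 higher, where 40.4% and 12.6% of all rows were.

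By span, both tools called 4 of 13 members under 10 kb higher and 0 lower, against 20.2% and 4.89% of all rows of that class. At 10 to 30 kb 9 of 61 were higher and 3 lower, against 23.7% and 6.87%, and at 30 to 100 kb 1 of 22 was higher and 6 lower, against 18.4% and 23%. All rows thus showed the same turn with span. ZNF274 had 0 and 3.5 tags at 5 h, against 79 and 95 at 1 h, and stood at 2.92% ± 4.13 of untreated (relative log2 change -3.78, edgeR adjusted p = 3.88e-06). ZNF573 had none at 5 h, against 16 and 22.5 at 1 h, and was at least 3.52-fold lower. ZNF331 had 3 and 5 tags at 5 h against 31.5 and 45.5 at 1 h. The 3 genes, described after their values were seen, had ranked high at 1 h.

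ZNF121 was the 1 gene with enough tags to be named by rule in this comparison. It had 39 and 24.5 tags at 5 h against 62 and 77.5 at 1 h, a relative log2 change of 0.71 by edgeR (adjusted p = 0.0328) and of 0.67 ± 0.18 by limma (adjusted p = 0.012). On the spike-in scale it stood at 13.5% ± 2.0 of untreated at 5 h and 15.7% ± 0.13 at 1 h, a change of -0.22 that did not pass (limma adjusted p = 0.356). ZNF675, also called TIZ for its binding of TRAF6, had 23 and 29.5 tags at 5 h against 26 and 43 at 1 h. It stood at 20.4% ± 6.64 of untreated at 5 h and 13.4% ± 2.17 at 1 h, and its libraries at the 2 times lay close without overlapping. It was chosen after its values were seen.

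**Figure D3:**
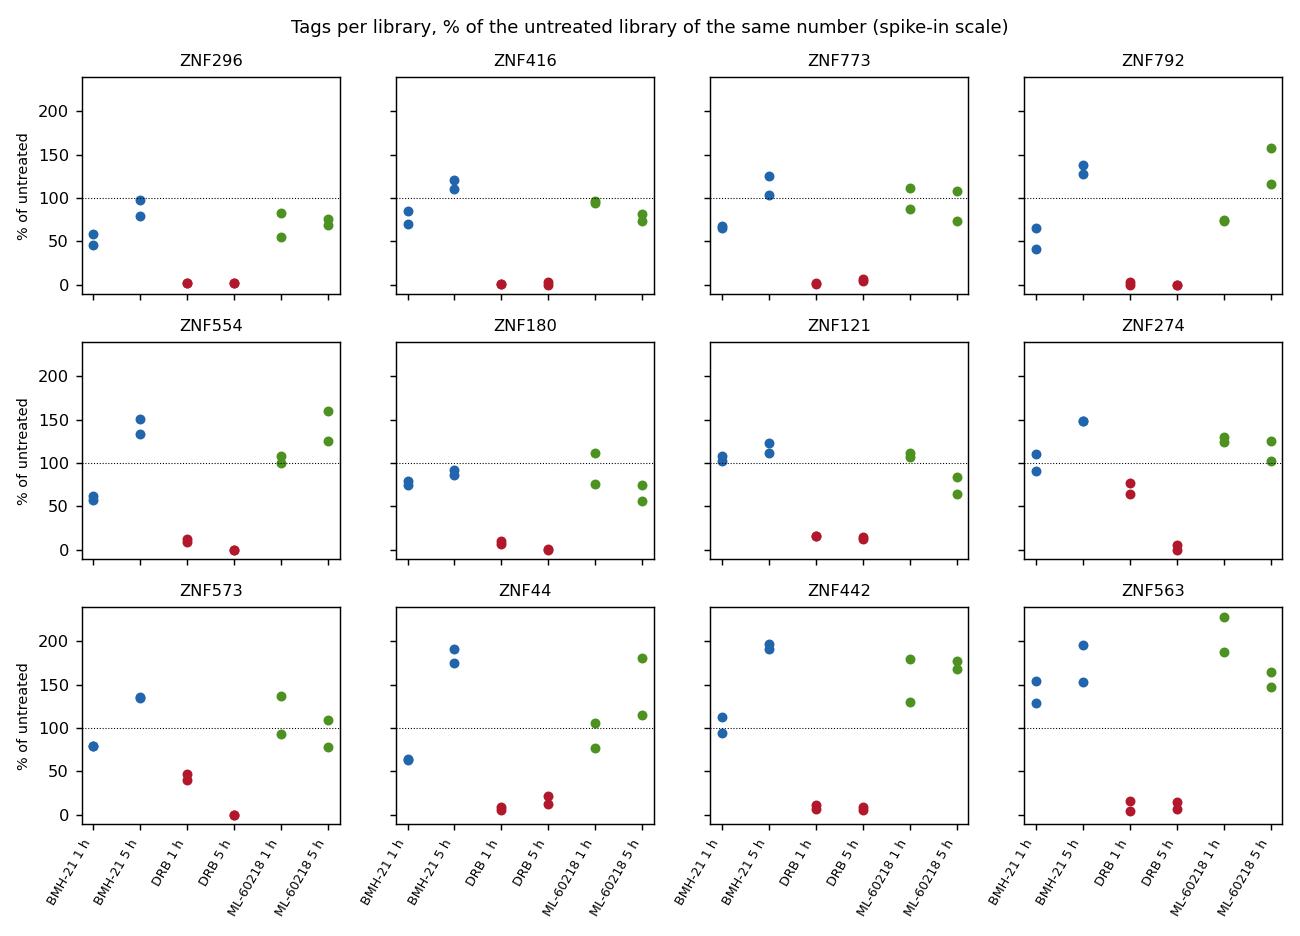
Percent of untreated on the spike-in scale in each of the 6 inhibitor groups for 12 members, with a point per library. ZNF296, ZNF416 and ZNF773 lie near the bottom at DRB 1 h, ZNF274 is at 70.8% at DRB 1 h and 2.92% at DRB 5 h, and ZNF442 and ZNF44 lie above 100% at BMH-21 5 h.

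Of the 9 positional groups with more than 1 member, the lowest at DRB 1 h was that of the pair ZNF599 and ZNF792, at 0% and 3.04% of untreated, with 1.88% and 2.13% at 5 h. This pair holds few tags. The 20 members from ZNF175 to ZNF331 (51571297 to 53580269 on chromosome 19, hg38) stood at 16.6% and 15.0% of untreated at 1 h and 4.09% and 5.27% at 5 h. The 20 members from ZNF101 to ZNF254 (19668853 to 24129852) stood at 14% and 14.8% at 1 h and 7.75% and 10.1% at 5 h. These groups did not overlap in their libraries at either time, and their order was opposite at 1 h and 5 h. The difference between groups of genes was not tested.

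The 11 members from ZNF283 to ZNF296 (43827291 to 45076588) stood at 5.63% and 4.79% at 1 h and 3.13% and 3.15% at 5 h. Without ZNF296 this group stood at 9.32% ± 0.462 at 1 h, so 1 gene set much of its low sum. The 22 members from ZNF579 to ZNF837, near the end of the long arm (55576769 to 58381060), stood at 11.8% and 11.9% at 1 h and 6.87% and 7.42% at 5 h. The 11 members from ZNF627 to ZNF442 stood at 11.8% and 9.30% at 1 h and 8.37% and 8.02% at 5 h, and the 6 members from ZNF146 to ZNF573 at 16% and 13.8% and then 6.96% and 7.61%.

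**Figure D4:**
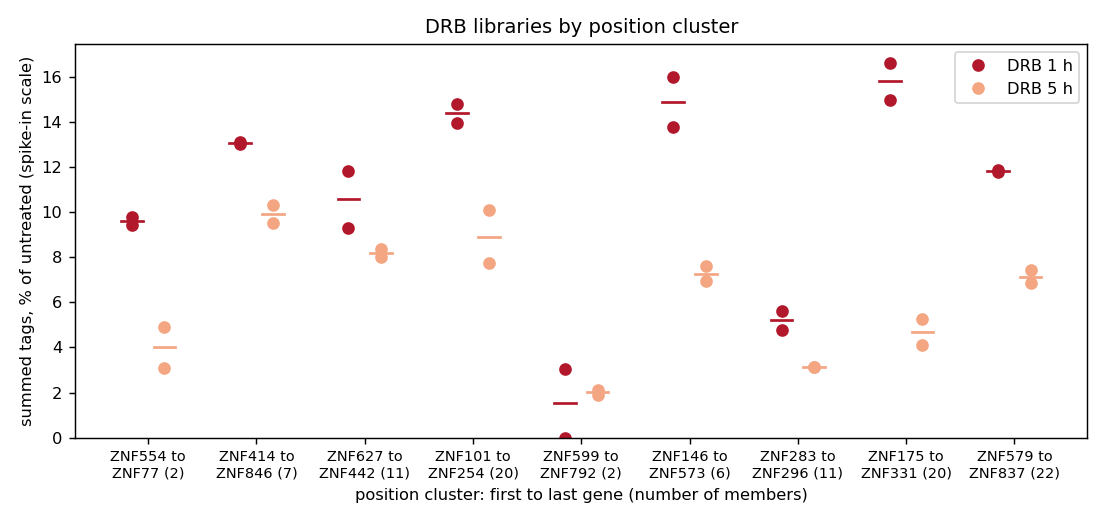
Summed tags as a percent of untreated on the spike-in scale for the 9 positional groups with more than 1 member, at DRB 1 h and DRB 5 h, with a point per library. The group from ZNF175 to ZNF331 stands at 15.8% at 1 h and 4.68% at 5 h, the pair ZNF599 and ZNF792 is lowest at both times, and the group from ZNF283 to ZNF296 is next.

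Members whose promoter held CCGGAAG or its complement were set beside members without it. The median relative log2 change at DRB 1 h was -1.42 for promoters with the heptamer and -1.64 for those without it. At DRB 5 h the order was opposite, at -1.77 with it and -1.54 without it. For DRB 5 h against DRB 1 h the medians were -0.33 and 0.20. All these medians are by limma, which was unreliable on simulated data for DRB 5 h. The split was not made with edgeR, so whether the order also turns by that tool is not known. Their median untreated levels were 6.59 and 4.30 tags per kb per 1000000 mRNA tags, and their median spans 22.7 and 21.3 kb. These are descriptions of medians with no test.

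BMH-21 and ML-60218, which act on the other polymerases, left the family near its untreated level. After 1 h of BMH-21 the members stood at 80.3% and 83.0% of untreated, against 85.7% ± 1.68 for all rows. After 5 h they stood at 110.3% and 109%, against 116% ± 2.83. After 1 h of ML-60218 they stood at 96.9% and 104%, against 101% ± 4.81, and after 5 h at 78.3% and 96.5%, against 92.2% ± 8.36. In each of these 4 groups the members stood below all rows in both libraries, by the least at ML-60218 1 h, and the 2 libraries of ML-60218 5 h were far apart.

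By limma no member was called in any of these 4 comparisons, where 0% of all rows were called in each. At an unadjusted p under 0.05, limma passed 3 members for BMH-21 1 h, 1 for BMH-21 5 h, 2 for ML-60218 1 h and 2 for ML-60218 5 h, against 5.82%, 3.63%, 2.77% and 8.21% of all rows. With only the 4 libraries compared in the fit, limma called 4 members at BMH-21 1 h, 2 at BMH-21 5 h and 15 at ML-60218 5 h, against 7.93%, 5.62% and 17% of all rows. By edgeR 2 members were higher and 5 lower at BMH-21 1 h (background 2.58% and 5.37%). At BMH-21 5 h 2 were higher and 0 lower (1.59% and 1.75%). At ML-60218 1 h 0 passed, against 0.0542% of all rows in either direction, with 11 members at an unadjusted p under 0.05 (8.03% of all rows). At ML-60218 5 h 3 were higher and 3 lower (4.18% and 2.3%). DESeq2 called 9, 3, 0 and 8 members in the same order of comparisons, against 8.59%, 4.05%, 0.163% and 8.55% of all rows. The median relative log2 change of the members lay between -0.07 and -0.04 in all 4.

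**Figure D5:**
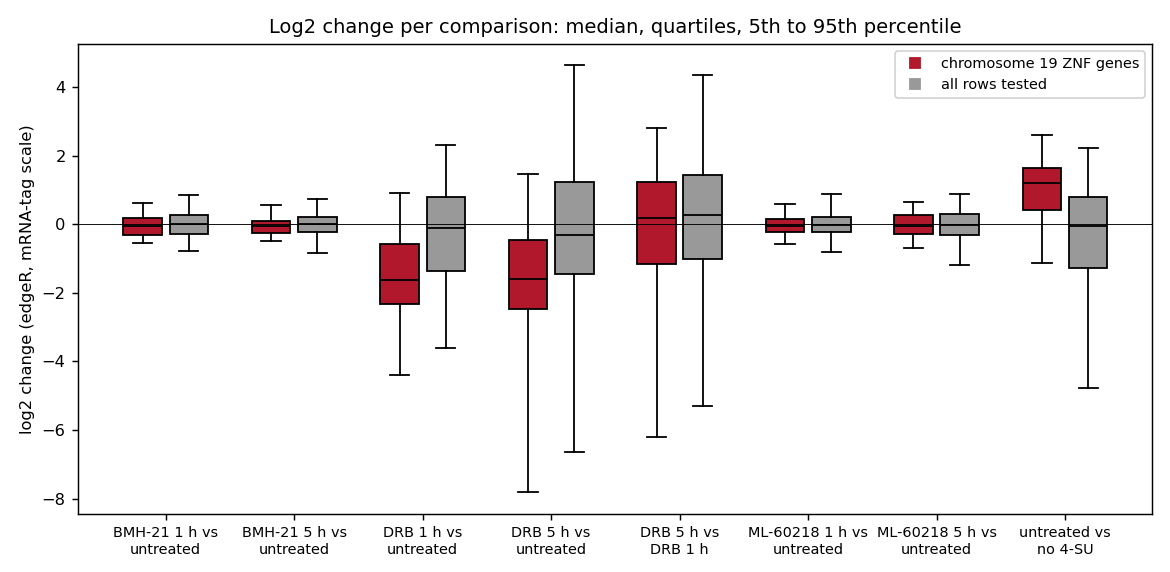
Relative log2 change by edgeR for the members beside all rows in 8 comparisons. Boxes show the median and quartiles and whiskers the 5th to 95th percentile over genes. Members are shifted down in DRB at 1 h and at 5 h, and up in untreated cells against cells without 4-SU, and lie beside all rows in BMH-21 and ML-60218.

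The calls by edgeR at BMH-21 1 h included ZNF296, with 3134 and 910 tags in BMH-21 libraries and 978.5 and 1645.5 in untreated libraries of other depths. It stood at 52.3% ± 9.0 of untreated on the spike-in scale, a relative log2 change of -0.74 (edgeR adjusted p = 0.00739). ZNF579 stood at 46.9% ± 1.8 (log2 -0.93, edgeR adjusted p = 0.00348), ZNF792 at 53.6% ± 17 and ZNF554 at 59.8% ± 3.7. ZNF77 had a relative change of -0.66 (edgeR adjusted p = 0.037). ZNF563 was higher, at 142% ± 19, with a change of 0.73 (edgeR adjusted p = 0.0358). ZNF264 was the other one called higher but had too few tags to be named by rule.

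ZNF442 and ZNF44, with ZNF563, lie side by side on the minus strand (12345948 to 12365633, 12272328 to 12294887 and 12317476 to 12333688 on chromosome 19, hg38). ZNF442 had 418 and 330.5 tags at BMH-21 5 h, against 84.5 and 140 in untreated libraries, and stood at 194% ± 3.3 (log2 0.72, edgeR adjusted p = 0.0183). ZNF44 stood at 183% ± 11 (log2 0.64, edgeR adjusted p = 0.043). At ML-60218 5 h the same 2 were higher again, ZNF442 at 173% ± 6.0 (log2 0.89, edgeR adjusted p = 0.00489) and ZNF44 at 148% ± 46 (log2 0.63, edgeR adjusted p = 0.0481). Both comparisons use the same untreated libraries. Since these neighbours are related in sequence, tags may be divided among them differently from gene to gene, which was not tested. Their positional group, ZNF627 to ZNF442, had 9 members tested, on both strands. By limma its median relative log2 change was 0.56 at BMH-21 5 h and 0.59 at ML-60218 5 h, with 0 members below 0 in either. The medians of all members were -0.05 and -0.04. At 1 h the group's medians were 0.25 in BMH-21, with 2 members below 0, and 0.26 in ML-60218, with 3. The difference between groups was not tested.

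ZNF554 was higher at ML-60218 5 h, at 143% ± 24 (log2 0.60, edgeR adjusted p = 0.0281). The 3 members lower there were ZNF317, ZNF180 and ZNF468. ZNF317 had 292 and 277.5 tags against 543 and 759 in untreated libraries and stood at 65.2% ± 21 (log2 -0.55, edgeR adjusted p = 0.0207). ZNF180 and ZNF468 changed by -0.53 and -0.51 (edgeR adjusted p = 0.0444 and 0.0453). By limma, with the spread pooled over all labelled libraries, none of the 14 changes given for these genes at BMH-21 and ML-60218 passed, with adjusted p of 0.432 to 1.

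Of 34 listed names of the KRAB silencing pathway 3 were in the table. The values here are relative log2 changes, and at DRB 1 h limma called 13.4% of all rows higher and 27.5% lower. At DRB 1 h, DNMT1, the maintenance DNA methyltransferase, was relatively higher (log2 0.90 ± 0.18, limma adjusted p = 0.0031). ATRX, a chromatin remodeller at silenced repeats, was relatively higher too (0.40 ± 0.12, limma adjusted p = 0.0229). SUMO2, whose product is attached to TRIM28, was lower (-0.70 ± 0.13, limma adjusted p = 0.00248). At DRB 5 h ATRX was lower by both tools (-1.03, edgeR adjusted p = 0.000194), and so was DNMT1 (-0.50, edgeR adjusted p = 0.0492), while SUMO2 was at 0.02. On the spike-in scale limma called all 3 lower at DRB 1 h and at DRB 5 h, as it did 66.4% and 75.1% of all rows. DNMT1 was also relatively lower in untreated cells with 4-SU than in cells without 4-SU (-0.63, limma adjusted p = 0.0184). On the spike-in scale all 3 were higher with 4-SU by limma, as were 4897 of 5769 rows. None of the 3 passed limma or edgeR in BMH-21 or ML-60218. With 3 of 34 names measured, the pathway as a whole was not covered.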

How the data were processed

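Nascent RNA of 16 HAP1 libraries in 8 groups of 2 was analysed. Per the submitters' processing notes, the tools were STAR 2.7.7a, HOMER, FastQC 0.11.9 and Trim Galore 0.6.5, listed with no order or settings, with builds GRCh38 and, for yeast, R64. HOMER counted tags in hg38 regions with no strand option, per the file headers. The authors deposited a signal column per library, headed as raw counts but scaled by HOMER to 10000000 tags, and a ratio column that sets each library against the untreated library of the same number after spike-in scaling. Tags were recovered by undoing that scaling with the totals in the headers, and all 138454 values under 200 tags were multiples of 0.5 tag, within 0.005 of a deposited unit. The deposited tables of rRNA and tRNA were not used here.

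The main test was limma 3.58.1 on log2 of TMM-scaled tags plus 0.5 over 14 libraries with 4-SU (all 16 for the comparison with cells without 4-SU), and a row had to pass filterByExpr with a minimum of 10 tags. A count test had been planned for raw counts and, as the values were scaled, became an alternative, run with edgeR 4.0.16 and DESeq2 1.42.0 on the recovered tags. P-values were adjusted by Benjamini-Hochberg over all rows tested, with a threshold of 0.05, in R 4.3.3. Tests were checked on simulated data, where limma was unreliable for DRB at 5 h, so calls there require limma and edgeR. Sums, promoters and figures were made with Python 3.11.15.

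Members and lists were chosen with earlier results of these data known. Genes were named by rule from members called with a mean of at least 50 tags and no overlap between the groups' libraries, up to 8 with the largest change each way, or up to 6 called by edgeR where limma called fewer than 3. Alternatives were other scalings, filters, added values, sets of libraries, a replicate block and leaving out each library.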

Additional observations from a re-analysis of the deposited data

Results flagged for a closer look

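The change of 20 members differed between the 2 times of DRB by a test of the difference itself, DRB 5 h against DRB 1 h, called by limma and edgeR with tags at both times. With 3 more members that had no tag at 1 of the times, the calls made up 24% of members, below the 36.3% of all rows. Of these 7 were lower at 5 h, with relative log2 changes by edgeR of -3.78 for ZNF274, -3.24 for ZNF180, -2.50 for ZNF160 and -2.38 for ZNF761. ZNF254 changed by -1.91, ZNF333 by -1.51 and ZNF331 by -1.40. The 13 higher at 5 h were led by ZNF211 at 3.94, ZNF586 at 3.58, ZNF773 at 3.16 and ZNF530 at 2.63. ZNF527 changed by 2.25, ZNF44 by 2.10, ZNF14 by 2.03, ZNF776 by 1.94 and ZNF136 by 1.81. The smallest rises were those of ZNF675 at 1.48, ZNF579 at 1.45, ZNF382 at 1.43 and ZNF121 at 0.71. The edgeR adjusted p of the 20 ran from 3.88e-06 to 0.0464. On the spike-in scale 10 of the 13 higher members passed limma, and ZNF121 had the opposite sign. Calls on that scale are by limma alone, which was unreliable on simulated data for DRB 5 h. Most of the 13 rest on few tags, such as 6.5 at 5 h against 1.5 at 1 h for ZNF211, over both libraries of each time.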

How the results depend on the processing

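In DRB 1 h against untreated cells the members' median of -1.61 kept its sign under every alternative run: -3.18 on the spike-in scale, -1.73 with no filter, -1.52 with a minimum of 50 tags, -1.59 with 2 added (also with 2 tags added in proportion to library size), -1.46 with only the 4 libraries compared, -1.58 with all 16 libraries, -1.54 without the DRB 5 h libraries and -1.72 to -1.58 without 1 library. Calls numbered 86 on the spike-in scale and 40 to 54 without 1 library. In DRB 5 h the limma median of -1.77 became -1.58 by edgeR (-1.59 with a replicate block), -4.01 on the spike-in scale, -2.09 with no filter, -1.31 with a minimum of 50 tags, -1.44 with only 4 libraries and -1.87 to -1.62 without 1 library. The 65 calls became 35 by DESeq2, 21 with 4 libraries and 49 to 74 without 1 library. In DRB 5 h against DRB 1 h the median of -0.24 turned to 0.17 by edgeR, 0.15 by edgeR with a replicate block, 0.27 with a minimum of 50 tags and 0.022 without DRB 5 h replicate 1. It was -0.87 on the spike-in scale, -0.42 with no filter, -0.092 with 2 added by either way and -0.17 to 0.022 without 1 library. Its 46 calls became 23 by edgeR and by DESeq2, 24 by edgeR with a replicate block, 7 with 4 libraries and 41 to 62 without 1 library, and ZNF121 turned to -0.22 on the spike-in scale. In untreated cells with 4-SU against cells without it, 39 calls became 59 by edgeR, 60 with a replicate block, 93 on the spike-in scale and 20 to 42 without 1 library, and the median of 1.29 became 6.46 on the spike-in scale, 1.53 with no filter and 1.16 to 1.36 without 1 library. For BMH-21 1 h, 0 calls by limma became 7 by edgeR, 10 by edgeR with a replicate block, 9 by DESeq2 and 4 with 4 libraries, and for BMH-21 5 h 2, 4, 3 and 2. For ML-60218 1 h 1 call came only by edgeR with a replicate block, and for ML-60218 5 h there were 6, 13, 8 and 15. Shares of all rows are not given for fits with a replicate block or without 1 library, so those counts show only how calls moved. Medians moved to -0.28 (BMH-21 1 h), 0.18 (BMH-21 5 h) and -0.14 (ML-60218 5 h) on the spike-in scale, to 0.0016 with no filter (BMH-21 5 h), and lay at -0.083 to 0.0033 without 1 library (ML-60218 5 h). Libraries of the same number deviated together only weakly (correlations of -0.04 to 0.16). Such values cannot tell whether libraries of the same number were handled together. In edgeR the replicate block took the calls at ML-60218 5 h from 6 to 13. The replicate block in limma moved no count of calls by over 1.5 times. Of 685 alternatives over 39 named results, 610 kept direction and call. The proportional addition, the fit without DRB 5 h and the edgeR block were chosen after seeing the data, and the causes of these shifts were not tested. A comparison of protein identity was not run, as no protein table was at hand, and no member overlapped another row. The depth of the DRB 5 h libraries limits every value there.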
